A study of Mus musculus with 39 samples.

Results

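The heat shock genes described here are 10 mouse genes named by a fixed list of symbols: Hspa1a, Hspa1b, Hsph1, Dnajb1, Hsp90aa1, Hspa8, Hspd1, Hspe1, Hspb1 and Bag3. All 10 were present among the 39179 genes of the count table and all 10 passed the filter on low counts that left 15070 genes. They were measured in 39 libraries of bulk RNA from Braf-mutated melanoma tumours that were raised in C57BL/6 mice. The groups were vehicle (a DMSO-PEG400 and water mixture), anti-PD-1 (an antibody against an inhibitory receptor of T cells, 200 µg per dose), EPAT (drugs that block EP2 and EP4, receptors for prostaglandin E2, dosed at 30 mpk) and anti-PD-1 plus EPAT, called the combination below. Dosing started on day 7 after tumour cells were injected, and tumours were labelled as taken after 2 or 5 days of treatment. Each of the 8 groups had 5 libraries, except anti-PD-1 on day 2 with 4. Groups follow the treatment and time-point labels, but for 3 libraries (anti-PD-1 day 5 replicate 3, EPAT day 2 replicate 5 and EPAT day 5 replicate 5) the first number of the sample title is the one that the other day of the same treatment mostly carries. The largest Hsph1, Hspa1a and Hspa8 differences with EPAT and the Hspd1 day difference are also given without them, and no member was called in any comparison without them. The labels do not say whether the tumours of a group came from separate animals, so p-values here reflect the spread between libraries only, and a label on RNA extraction names day 4, which matches neither time point.

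Heat shock proteins are chaperones that bind unfolded or newly made proteins. Hspa8 is the constitutive and Hspa1a and Hspa1b are the inducible cytosolic Hsp70 proteins, Dnajb1 stimulates their ATPase, and Hsph1 and Bag3 release their nucleotide. Hsp90aa1 is the inducible form of cytosolic Hsp90, Hspd1 and Hspe1 form the chaperonin chamber and lid of mitochondria, and Hspb1 is a small heat shock protein that holds unfolded clients. The transcription factor Hsf1 drives inducible members by binding heat shock elements, which are inverted repeats of a short GAA unit.

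By the GENCODE annotation on GRCm38, the inducible Hsp70 genes neighbour each other, with Hspa1a (ENSMUSG00000091971) at chr17:34969190-34972156 on the minus strand and Hspa1b (ENSMUSG00000090877) at chr17:34956436-34959238 on the minus strand, 9952 bases apart. The mitochondrial pair is head to head, with Hspd1 (ENSMUSG00000025980) at chr1:55077835-55088243 on the minus strand and Hspe1 (ENSMUSG00000073676) at chr1:55088132-55091307 on the plus strand. Chromosome 5 holds Hsph1 (ENSMUSG00000029657) at chr5:149614287-149636376 on the minus strand and Hspb1 (ENSMUSG00000004951) at chr5:135887919-135889563 on the plus strand. The remaining genes are Dnajb1 (ENSMUSG00000005483) at chr8:83608193-83612653 on the plus strand, Hspa8 (ENSMUSG00000015656) at chr9:40800984-40810087 on the plus strand, Hsp90aa1 (ENSMUSG00000021270) at chr12:110690605-110702728 on the minus strand and Bag3 (ENSMUSG00000030847) at chr7:128523616-128546981 on the plus strand.

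The libraries held 8385741 to 15558113 counts, with a median of 12193825. Each count is a tag near the 3′ end of a transcript, so levels in CPM (counts scaled to a common library size) carry no length term. The labelled tumour type was only partly visible in its markers: 3 of 12 melanocyte genes (Mitf, Sox10 and S100b) passed the filter, and 7 (Mlana, Dct, Tyr, Tyrp1, Slc45a2, Gpr143 and Oca2) had a median count of 0. All 13 skeletal muscle markers passed, and 23 of 39 libraries carried at least 100 counts of 6 lung genes. In bulk tissue, fewer cells of a type and less RNA per cell cannot be told apart.

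Promoter sequence is shown for 5 members whose windows hold an exact match to 2 units of the heat shock element. They are a near-identical pair, a shared region and 2 further members described in detail below. Windows of 300 bases, from 250 before to 50 after an annotated start, were taken from RefSeq on GRCm38.p6. They were found for 8 of the 10 members in 11 windows, with none for Hsp90aa1 and Hspa8. Capitals mark every match to GAANNTTC or TTCNNGAA, searched on both strands, where overlapping matches run into each other.
The inducible pair on chromosome 17, Hspa1a at chr17:34972107-34972406 and Hspa1b at chr17:34959189-34959488, both on the minus strand:
Hspa1a: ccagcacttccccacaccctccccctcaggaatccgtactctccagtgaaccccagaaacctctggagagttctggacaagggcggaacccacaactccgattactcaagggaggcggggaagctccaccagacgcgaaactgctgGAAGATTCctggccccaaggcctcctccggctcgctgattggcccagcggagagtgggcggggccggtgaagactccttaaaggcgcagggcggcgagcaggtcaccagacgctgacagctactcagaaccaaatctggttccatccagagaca
Hspa1b: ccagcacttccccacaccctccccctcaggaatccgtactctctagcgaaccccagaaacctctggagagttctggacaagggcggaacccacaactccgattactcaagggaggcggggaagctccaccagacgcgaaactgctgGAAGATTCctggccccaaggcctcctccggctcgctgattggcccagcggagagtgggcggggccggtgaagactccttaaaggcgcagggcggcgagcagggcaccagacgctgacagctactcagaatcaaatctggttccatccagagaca
Hspe1 at chr1:55087898-55088197 on the plus strand, a window that lies within the annotated Hspd1 gene:
Hspe1: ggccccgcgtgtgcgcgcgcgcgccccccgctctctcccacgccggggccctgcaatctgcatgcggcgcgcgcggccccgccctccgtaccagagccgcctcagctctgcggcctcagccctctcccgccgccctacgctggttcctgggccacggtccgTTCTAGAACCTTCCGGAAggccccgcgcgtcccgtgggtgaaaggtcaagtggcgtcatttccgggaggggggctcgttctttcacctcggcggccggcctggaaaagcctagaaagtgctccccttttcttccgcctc
Hsph1 at chr5:149636287-149636586 on the minus strand:
Hsph1: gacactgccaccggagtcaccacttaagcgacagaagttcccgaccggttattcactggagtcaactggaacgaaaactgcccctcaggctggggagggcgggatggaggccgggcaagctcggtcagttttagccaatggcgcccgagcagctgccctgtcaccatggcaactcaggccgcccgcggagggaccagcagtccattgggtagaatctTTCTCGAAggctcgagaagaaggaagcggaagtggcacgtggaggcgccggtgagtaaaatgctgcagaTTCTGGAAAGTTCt
Hspb1 at chr5:135887669-135887968 on the plus strand:
Hspb1: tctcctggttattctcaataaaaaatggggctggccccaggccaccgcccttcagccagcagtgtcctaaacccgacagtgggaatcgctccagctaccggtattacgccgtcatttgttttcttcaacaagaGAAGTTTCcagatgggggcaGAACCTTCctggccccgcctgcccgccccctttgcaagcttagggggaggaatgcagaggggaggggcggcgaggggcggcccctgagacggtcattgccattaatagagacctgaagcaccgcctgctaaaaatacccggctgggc

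The Hspa1a and Hspa1b windows were 98.7% identical and differed at 4 positions, C44T, T47C, T249G and C276T, with the Hspa1a base first and positions counted from 1 at the 5′ end of the window. Both held 1 match, which began at position -104 from the start. One Hspd1 window on the minus strand overlapped the Hspe1 window by 285 bases, and the same run of 3 overlapping matches is in both. That window belongs to a start inside the annotated Hspd1 gene. The Hspd1 window at the GENCODE start overlapped the Hspe1 window by 4 bases and held 0 matches. Of the 11 member windows, 8 held a 2-unit match, against 15.1% of all 32851 RefSeq promoter windows of the mouse. Counted by gene, 7 of the 8 members held one in any window, against 17% of 27025 genes. Hspd1 and Hspe1 count the same stretch in both tallies. The 2 Hsph1 windows overlap and hold the same matches, and Hspa1a and Hspa1b hold near-identical copies of 1 match. The tallies are thus not of independent sequences. The longer element of 3 alternating GAA and TTC units, each spaced by 2 free bases, was in 4 of the 11 windows, against 0.603% of all windows, and in 3 members (Hsph1, Hspd1 and Hspe1), against 0.662% of genes. Those 4 windows are the 2 overlapping Hsph1 windows and the Hspd1 and Hspe1 windows that share 1 stretch. Bag3 had 1 match, which lay after the start at position 42, and Dnajb1 had none in its windows. The 3-unit element of Hsph1 also lay after the start. Its 2-unit matches began at positions 36 and 41 in the window shown, and at 15 and 20 in the other Hsph1 window. The remaining Hsph1 match lay before the start, at -33 and -54. A match is a description of letters and not of factor binding.

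The 10 genes spanned a wide range of levels. Hspa8 was the most abundant at 602.8 CPM on average over 39 libraries (range 461.9 to 815.1), followed by Hsp90aa1 at 486.3 (295.7 to 654.6). The mitochondrial partners Hspd1 and Hspe1 were near each other at 160.1 and 138.2 CPM, and Hsph1 averaged 104 (70.15 to 167.7). Bag3 averaged 61.99 CPM and Dnajb1 51.7. The inducible Hspa1b averaged 23.59 CPM (2.688 to 52.25), Hspb1 7.733 (0.7219 to 55.82) and Hspa1a 4.273 (2.001 to 10.41). Hspa1a supplied a median of 14.3% of the counts of the inducible pair, and between 7.49% and 54.5% in single libraries.

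The members differed in how steady they were between tumours of a group. The SD of log2 CPM within groups was 0.19 for Hspa8 and for Hspd1, at the 8.85th and 7.09th percentile of all genes tested. It was 0.71 for Hspa1b (82.2nd percentile), 0.53 for Hspa1a (67.2nd) and 1.28 for Hspb1 (98.1st). These 3 genes lay above the all-gene median of 0.38, and the other 7 lay below it. Across libraries Hspa8 spanned 1.765-fold from lowest to highest, Hspa1b 19.44-fold and Hspb1 77.33-fold.

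**Figure D1:**
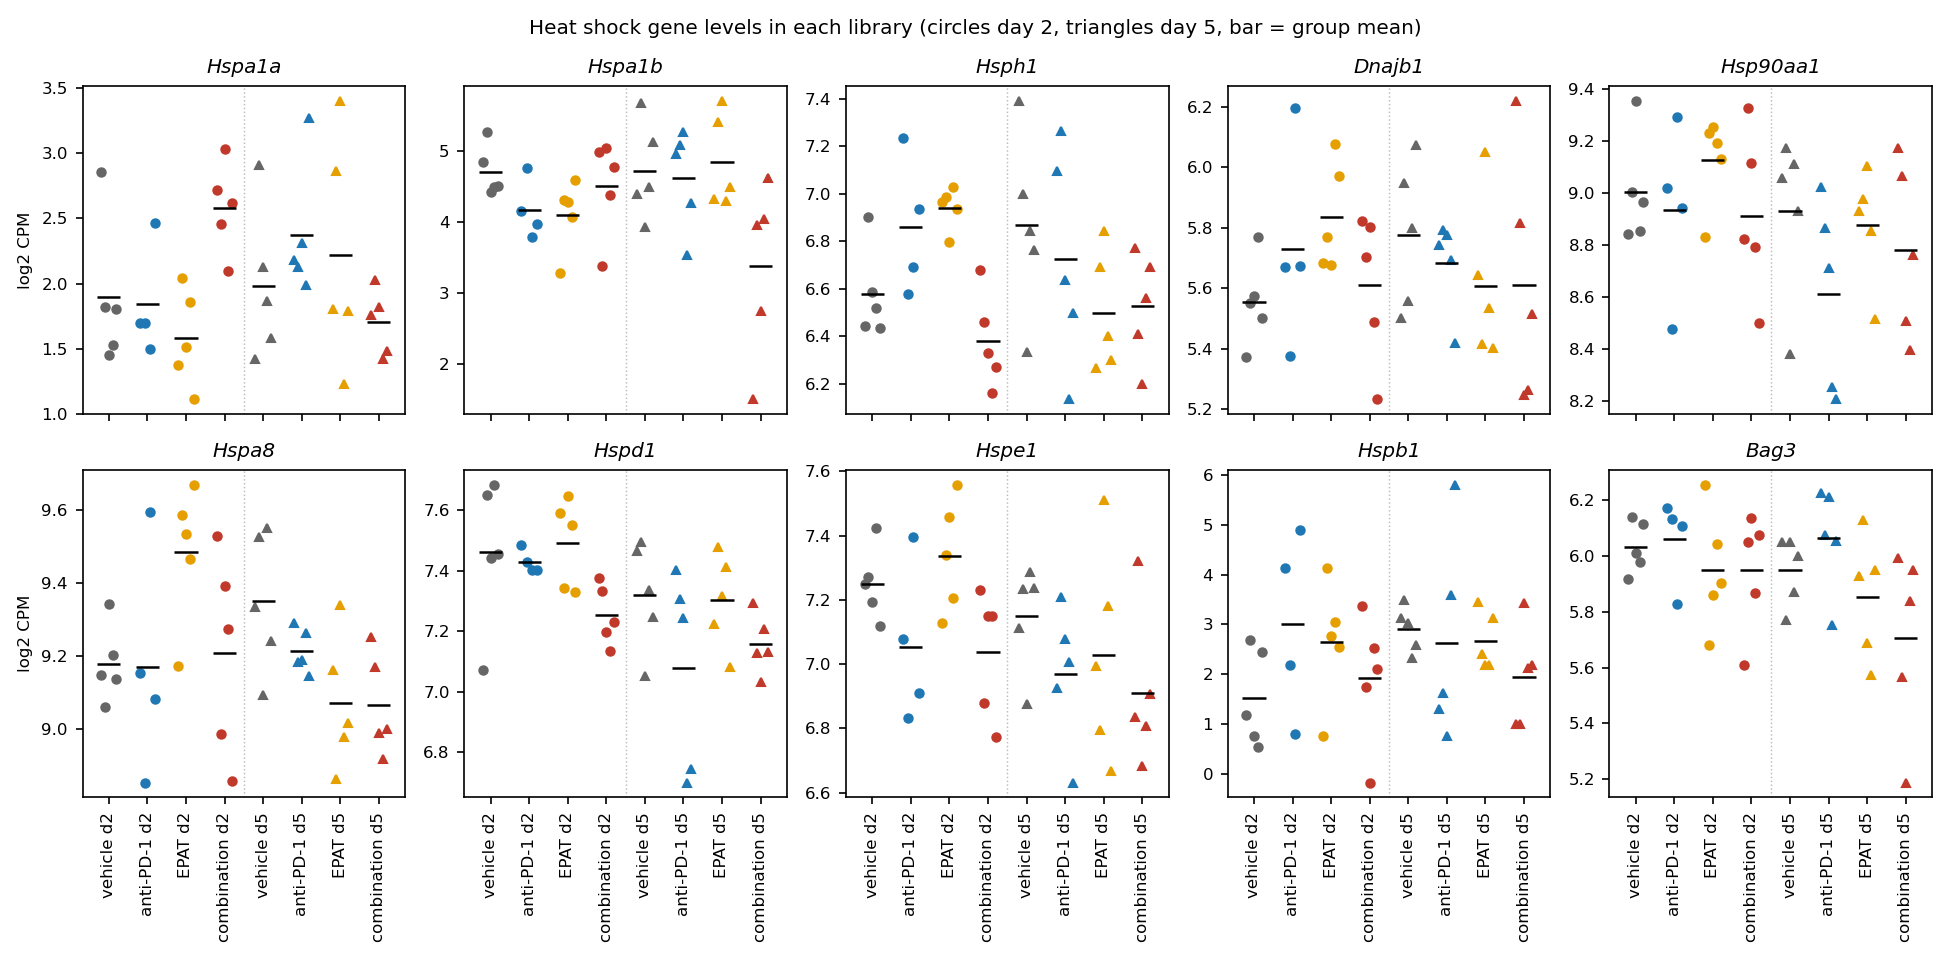
Each panel shows 1 heat shock gene as log2 CPM (y axis, scaled per panel) in every library of the 8 groups (x axis); circles are day 2, triangles day 5 and bars group means. Groups overlap for most genes, and Hspb1 and Hspa1b are the most dispersed: Hspb1 spans 0.7219 to 55.82 CPM and Hspa1b 2.688 to 52.25 CPM.

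No heat shock gene passed the test in any of 23 comparisons, with edgeR's quasi-likelihood test and Benjamini-Hochberg adjustment over all 15070 genes at 0.05. The test of any difference among the 8 groups called 0 of the 10, while 4 of them (Hspa1a, Hsph1, Hspa8 and Hspd1) had an unadjusted p under 0.05. It called 0.564% of all genes, and 15.4% had an unadjusted p under 0.05. The smallest adjusted p of a member in that test was 0.234, for Hsph1. Between 0 and 4 members a comparison had an unadjusted p under 0.05. DESeq2 and limma-trend also called 0 members, and limma-voom with quality weights made 8 member calls over the 23 comparisons. That fit also called many more genes of any kind, 2424 in the test of any difference against 85 here. Few genes of any kind passed in these tumours. In the comparisons of each single treatment with vehicle on either day and of the combination with vehicle on day 2, 0% of genes passed. The same 0% applied to the combination against anti-PD-1 and against EPAT on day 2, against EPAT on day 5, to vehicle, anti-PD-1 and EPAT between days, to EPAT averaged over antibody status on day 2, to both interactions of the drugs, and to each treatment effect between days. In these comparisons 256 to 1917 genes had an unadjusted p under 0.05.

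The combination on day 5 gave the most one-sided pattern. All 10 heat shock genes were lower in it than in vehicle on day 5, with a median log2 difference of -0.26, while the median over all genes was -0.01. None passed the test, against 0.0265% of all genes (4 genes), and 3 had an unadjusted p under 0.05, against 16.5% of all genes. The 10 differences share the same 10 tumours and members correlate with each other, so they are not 10 independent observations.

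Hspa1b had the largest such difference. Its CPM values in the 5 combination tumours of day 5 were 2.69, 15.4, 6.57, 16.4 and 24.6, and in the 5 vehicle tumours 20.9, 51.3, 15.1, 22.4 and 35. Replicates 1 and 3 of the combination lay below the lowest vehicle value and the groups overlapped, with replicate 1 lowest of all libraries at 25 counts. The log2 difference was -1.14 ± 0.41 (SE), a fold of 0.4542 with a 95% interval on the log2 scale from -1.97 to -0.30, and edgeR's adjusted p was 0.2022. Without any 1 library it ranged from -1.48 (without combination day 5 replicate 5) to -0.82 (without vehicle day 5 replicate 2). Among tumours with lung transcripts the difference of means was -0.67 (2 against 3 libraries), and among those without it was -1.85 (3 against 2). Without 3 libraries that carry B cell or keratinocyte genes (vehicle day 2 replicates 1 and 2 and combination day 5 replicate 3) it was -0.97 ± 0.44 (adjusted p 0.363). With Hspa1a and Hspa1b counts summed, the log2 difference was -1.02 ± 0.35 and the adjusted p 0.195.

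Markers of other cell types also differed between these groups. All 8 macrophage and all 9 tested T cell markers were higher in the combination than in vehicle on day 5, with median log2 differences of 0.59 and 1.09, and all 8 adipocyte markers were lower (median -2.20), with 0 called in each list. Macrophage scores ran from 8.30 to 9.45 in the combination and from 7.61 to 8.71 in vehicle, and T cell scores from 3.66 to 5.20 and from 2.84 to 4.10. Their part in the heat shock gene differences was not tested.

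Against the other day 5 groups Hspa1b was lower in the combination too. The log2 difference was -1.02 ± 0.41 against anti-PD-1 (adjusted p 0.6973, 0.0199% of genes called) and -1.25 ± 0.41 against EPAT (adjusted p 0.2877). Neither passed, and the 3 differences share the combination libraries. Among tumours with lung transcripts the difference of means was -0.31 against anti-PD-1 and -1.56 against EPAT (2 against 2 libraries each). Among those without it was -1.87 and -1.41 (3 against 3 libraries each). The highest Hspa1b value with anti-PD-1 on day 5, 38.5 CPM, was in replicate 3, a library of discordant title number. On day 2 the combination and vehicle differed by -0.12 ± 0.40 in Hspa1b (adjusted p 0.9542). The change of that treatment effect between days was not called for any member.

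Bag3, which links Hsp70 to small heat shock proteins and autophagy, was also low in some combination tumours of day 5. It was 63.5, 47.3, 36.3, 57.1 and 61.7 CPM there, and 74.7, 67.4, 74, 53.8 and 66.3 CPM with anti-PD-1. The lowest value, in replicate 3, was the lowest of all 39 libraries, and the groups overlapped. The log2 difference was -0.34 ± 0.13 (adjusted p 0.6825). It was -0.23 without combination day 5 replicate 3, 1 of the 3 libraries that carry B cell or keratinocyte genes. Hspa1a in the same comparison differed by -0.76 ± 0.36 (adjusted p 0.758), and by -0.44 without anti-PD-1 day 5 replicate 5.

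The other Hsp70 system genes on day 5 differed less. In the combination against vehicle, Hsph1 differed by -0.37 ± 0.18 (adjusted p 0.2929; -0.20 without vehicle day 5 replicate 1) and Hspa8 by -0.29 ± 0.13 (adjusted p 0.2699). For Bag3 and Dnajb1 the log2 values were -0.22 ± 0.13 and -0.13 ± 0.17 (adjusted p 0.4107 and 0.7076). Hspd1 and Hspe1, the mitochondrial pair, gave -0.17 ± 0.12 and -0.23 ± 0.14 (adjusted p 0.4887 and 0.4163). The 95% interval for Hspd1 ran from -0.41 to 0.08.

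**Figure D2:**
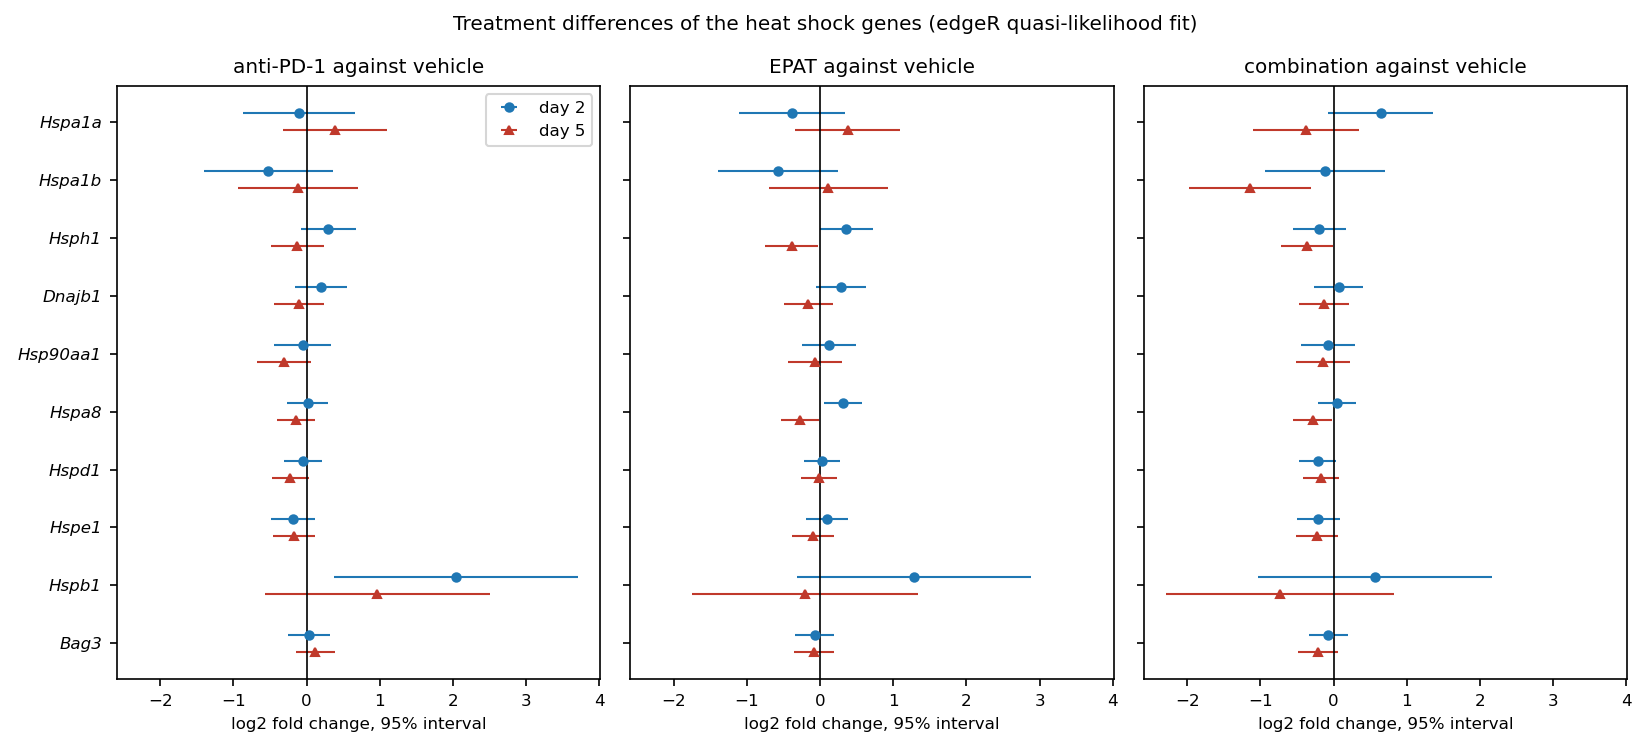
The x axes give the log2 fold change of each heat shock gene (rows) against vehicle of the same day, with 95% intervals, for anti-PD-1, EPAT and the combination; circles are day 2 and triangles day 5. In the combination on day 5 all 10 points lie left of 0, and the intervals of Hspb1 are the widest.

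On day 2 the Hsp70 cofactor Hsph1 was lower in the combination than with EPAT alone, a difference that was not called. Hsph1 was 102, 87.7, 80.3, 71.5 and 77 CPM in the 5 combination tumours and 125, 127, 111, 131 and 122 CPM in the 5 EPAT tumours. Every combination value lay below every EPAT value. How many of all genes separate in this way was not counted, and 7.36% had an unadjusted edgeR p under 0.05 in this comparison. The log2 difference was -0.55 ± 0.18 (-0.56 ± 0.19 without the 3 libraries of discordant title number), but edgeR's adjusted p was 0.4721 and 0% of genes passed in this comparison. Against anti-PD-1 on day 2 the difference was -0.49 ± 0.19 (adjusted p 0.9251). The interaction of the drugs on day 2 was -0.85 ± 0.26 for Hsph1 (adjusted p 0.4748), as the single treatments stood above vehicle and the combination below it: group means were 96.01 ± 13.64 CPM (SD, n = 5) for vehicle, 117.8 ± 24.58 (n = 4) for anti-PD-1, 123 ± 7.382 (n = 5) for EPAT and 83.75 ± 11.9 (n = 5) for the combination. A limma-voom fit with library quality weights, which called 150 genes between the combination and EPAT against 0 here, gave Hsph1 an adjusted p of 0.0367 and a log2 difference of -0.56. Over all alternatives run for this comparison its adjusted p ran from 0.0367 to 0.925.

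The inducible Hspa1a showed the opposite order on day 2. It was 6.41, 5.32, 8.01, 4.12 and 5.97 CPM in the combination and 2.43, 3.96, 2.69, 3.46 and 2 CPM with EPAT alone. These groups did not overlap, and the log2 difference was 1.03 ± 0.36 (adjusted p 0.5096, 0% of genes called), or 0.92 ± 0.38 without the 3 libraries of discordant title number. By day 5 the combination tumours were at 3.23, 3.9, 3.37, 2.52 and 2.63 CPM, all below the day 2 values of that treatment, with a log2 difference of -0.93 ± 0.36 (adjusted p 0.3259, 0.0133% of genes called). The share of all genes without overlap was not counted for either comparison. An unadjusted edgeR p under 0.05 was found for 7.36% of genes against EPAT and 11.7% between days. Hspa1a rests on 23 to 162 counts a library. The immediate early list (Fos, Egr1 and 14 others), whose genes respond within minutes to stress or handling, had scores of 5.90 to 6.04 in combination tumours and 5.34 to 5.74 in EPAT tumours on day 2. The oxidative and metal stress list (Mt2, Hmox1 and others) also separated these groups, at 6.09 to 6.602 in combination tumours and 5.638 to 5.786 in EPAT tumours. The part of either list in the Hspa1a difference was not tested.

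Hspa8, the constitutive Hsp70, was highest with EPAT on day 2. Its CPM values there were 577, 769, 741, 708 and 815, against 567, 533, 649, 589 and 562 in vehicle. On day 5 the EPAT tumours were at 572, 466, 648, 503 and 517 and the vehicle tumours at 646, 738, 546, 751 and 604. EPAT was thus mostly above vehicle on day 2 and mostly below it on day 5, with overlap on both days. The log2 differences were 0.32 ± 0.13 (adjusted p 0.748) and -0.28 ± 0.13 (adjusted p 1), and the change of the EPAT effect between days was -0.60 ± 0.18 (adjusted p 0.9423). Without the 3 libraries of discordant title number, these were 0.29 ± 0.14, -0.26 ± 0.15 and -0.55 ± 0.20 (adjusted p 0.821, 1 and 0.999). EPAT day 2 replicate 5, one of the 3, holds the highest Hspa8 of all libraries. Within EPAT, the day 5 against day 2 log2 difference was -0.42 ± 0.13 (adjusted p 0.5694), or -0.36 ± 0.15 without the 3 libraries (adjusted p 0.897), and limma-voom with quality weights gave this comparison an adjusted p of 0.00741, with 1181 genes called. EPAT averaged over antibody status on day 5 called no member and 0.0133% of genes.

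Between days, averaged over the 4 treatments, Hspd1 came nearest to passing. This comparison called 332 genes, 2.2% of those tested, and 0 members. Hspd1 was lower on day 5 by a log2 value of -0.19 ± 0.06, a fold of 0.8774, with an adjusted p of 0.09792. Without the 3 libraries of discordant title number it was -0.20 ± 0.07 (adjusted p 0.121). Leaving out vehicle day 2 replicate 1 or anti-PD-1 day 5 replicate 1 brought it to -0.21 in both cases and past the threshold (adjusted p 0.0491 and 0.0446). Over all 50 alternatives run for this comparison, the adjusted p of Hspd1 ran from 0.0446 to 0.243. Group means were 178 ± 28.38 CPM in vehicle on day 2 and 160.5 ± 19.4 on day 5, 172.3 ± 4.769 and 137.9 ± 30.36 with anti-PD-1, 180.6 ± 18.09 and 158.5 ± 17.01 with EPAT, and 152.7 ± 10.52 and 142.9 ± 9.639 in the combination (SD, n = 5, and 4 for anti-PD-1 on day 2). The day 5 mean was below the day 2 mean in each of the 4 treatments. Hsp90aa1 group means ranged from 401.6 ± 99.23 CPM with anti-PD-1 on day 5 to 562.9 ± 62.64 with EPAT on day 2 (SD, n = 5). Hspe1 means ran from 121.6 ± 22.18 in the combination on day 5 to 162.6 ± 19.95 with EPAT on day 2, and Dnajb1 means from 47 ± 4.734 in vehicle on day 2 to 57.32 ± 7.273 with EPAT on day 2. For the day effect, Hsp90aa1 and Hspe1 had log2 values of -0.19 ± 0.09 and -0.15 ± 0.07 (adjusted p 0.2881 and 0.2874).

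Several members covaried with lists of other genes, and 32 of 180 relations passed by both r and rho. The share of such relations among all genes tested was not computed. The libraries share tissue makeup, so the count describes covariation and is not shown to be particular to heat shock genes. Hspd1 is given in full. Over 39 libraries its log2 CPM correlated with the mean log2 CPM of the 8 CCT genes, which encode the cytosolic chaperonin, at Pearson r = 0.896 and Spearman rho = 0.865 (permutation p 1e-05 each, the smallest 100000 resamples can give; adjusted over 180 gene and list pairs 0.00018 and 0.00045). With group means subtracted r was 0.837, and without the 2 libraries farthest from the median score it was 0.844. It ran opposite to the macrophage list (8 of 8 markers tested, r = -0.717, rho = -0.613, adjusted permutation p 0.0003 and 0.00157), the endothelial list (r = -0.705, rho = -0.552, adjusted permutation p 0.00018 and 0.00348) and the neutrophil list (r = -0.66, rho = -0.583, adjusted permutation p 0.00018 and 0.00229). Without the 2 farthest libraries these r were -0.62, -0.544 and -0.532. The fibroblast and T cell lists gave r = -0.643 (rho -0.527, adjusted permutation p 0.0003 and 0.0062) and r = -0.571 (rho -0.602, adjusted permutation p 0.00148 and 0.0016). The pattern was not particular to Hspd1: Hsp90aa1 gave r = -0.762 with the neutrophil list (rho -0.679, adjusted permutation p 0.00018 and 0.000514) and -0.699 with the endothelial list (rho -0.511, adjusted permutation p 0.00018 and 0.00909). In libraries with and without lung transcripts the macrophage r was -0.607 and -0.83. The 2 lowest Hspd1 tumours, anti-PD-1 day 5 replicates 4 and 5 at 104 and 107 CPM, scored 9.21 and 9.73 for the macrophage list, while the remaining 37 libraries ran from 7.17 to 9.45. On day 2 Hspd1 was 140 to 166 CPM in the combination and 169 to 179 CPM with anti-PD-1, without overlap. The log2 difference was -0.17 ± 0.13 (adjusted p 0.9251, 0% called). How many of all genes separate in this way was not counted, and 4.35% had an unadjusted edgeR p under 0.05. Macrophage scores there were 8.03 to 8.62 (median 8.49) in the combination. With anti-PD-1 they were 7.80 to 8.48 (median 7.85), and only replicate 4, the highest, lay within the combination range. The part of immune content in the Hspd1 differences was not tested.

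**Figure D3:**
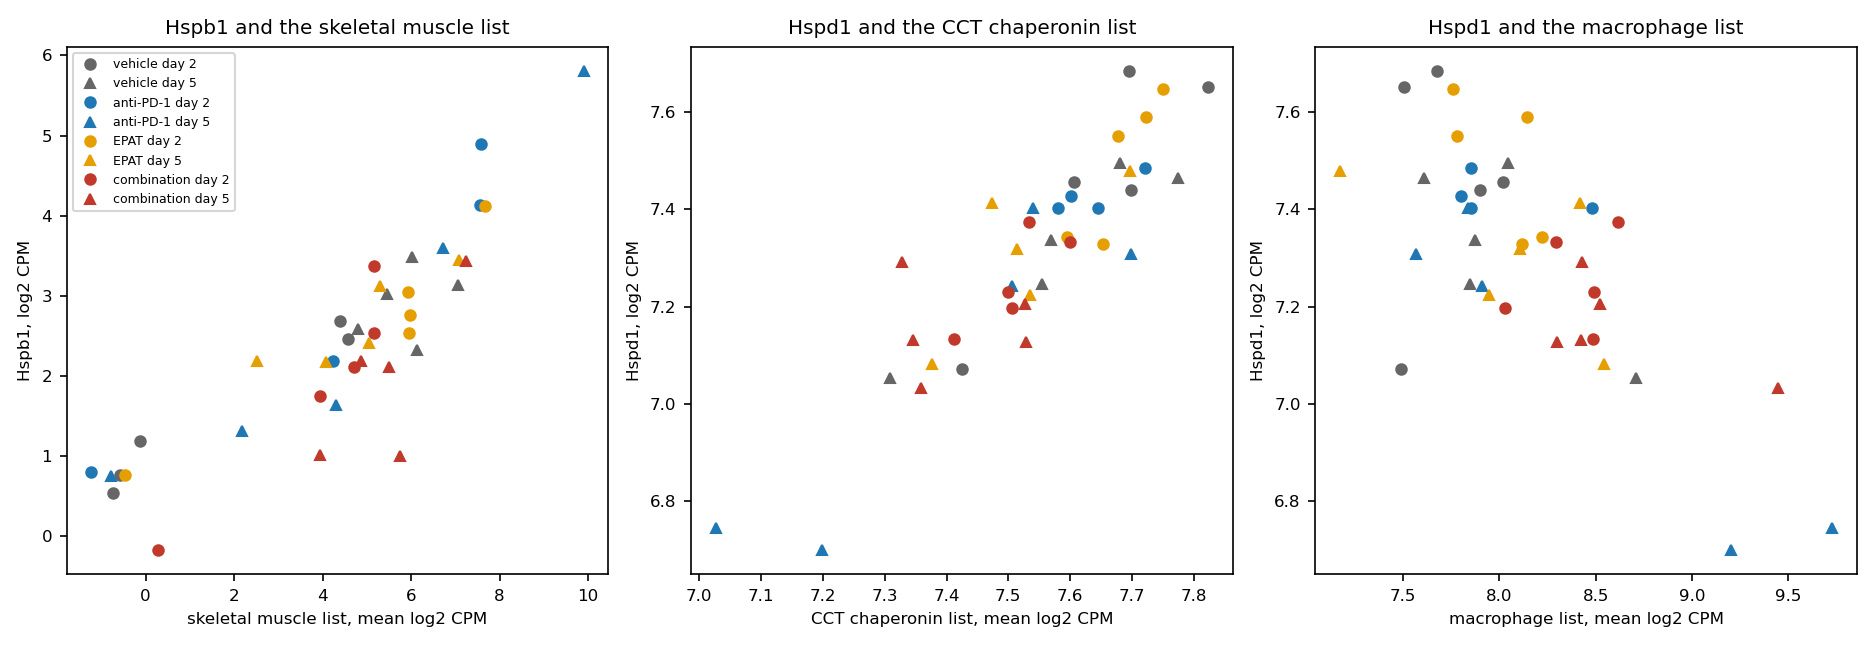
Log2 CPM of Hspb1 (left) and Hspd1 (middle and right) on the y axes against the mean log2 CPM of the skeletal muscle, CCT chaperonin and macrophage lists on the x axes, 1 point per library. Hspb1 is higher where muscle transcripts are higher among the 32 libraries above a score of 1, and Hspd1 is higher with the CCT genes (r = 0.896) and is lowest in 2 anti-PD-1 day 5 tumours of high macrophage score.

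Hspb1 covaried with skeletal muscle transcripts. The libraries fell into 7 with a muscle score below 1 and 32 above it, a limit chosen after the values were seen. Hspb1 was 0.722 to 2.11 CPM in the 7 and 1.83 to 55.8 CPM in the 32. Within the 32, Hspb1 correlated with the muscle score at r = 0.826 and rho = 0.799 (permutation p 1e-05 each), and without the 2 farthest libraries r was 0.74. Within the 7, r was -0.459 and rho -0.143 (exact permutation p 0.307 and 0.783), and without the 2 farthest libraries r was 0.9, so the sign rests on those libraries. The 5 genes most like Hspb1 over 39 libraries after group means were subtracted were Smpx (r = 0.948), Des (0.942), Ldb3 (0.941), Rbfox1 (0.935) and Pgam2 (0.933), most of them structural or metabolic genes of muscle. The same measure for Hspd1 gave Fam171a1 at 0.848 and Tes at 0.815, and for Hspa1b Gtpbp3 at 0.802 and Taf5l at 0.797.

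Hspb1 averaged higher with anti-PD-1 than with vehicle on day 2, and muscle scores were uneven between these groups. On day 2 the anti-PD-1 values were 17.4, 4.41, 1.58 and 29.7 CPM and the vehicle values 2.11, 6.24, 1.53, 1.29 and 5.32. The log2 difference was 2.04 ± 0.82 (adjusted p 0.6212, 0% of genes called), with overlapping groups. Muscle scores in the same order were 7.56, 4.22, -1.23 and 7.58 for anti-PD-1 and -0.13, 4.38, -0.58, -0.75 and 4.56 for vehicle. With the muscle score as a covariate the log2 difference was 0.18 ± 0.38 (adjusted p 0.999). Without anti-PD-1 day 2 replicate 5, and with no covariate, it was 1.27. The same covariate left the combination against vehicle on day 5 at -0.71 ± 0.32 (adjusted p 0.253), from -0.73 ± 0.77, and the combination against anti-PD-1 on day 5 at -1.10 ± 0.33 (adjusted p 0.569), from -1.70 ± 0.78. Without anti-PD-1 day 5 replicate 5 and with no covariate, that last value was -0.03. On day 5 anti-PD-1 replicate 5, with the highest muscle score of all at 9.90, held the highest Hspb1 at 55.8 CPM. As treatment groups differed in muscle score, the 2 cannot be told apart by the covariate fit. The part of muscle content in the Hspb1 differences was not tested. The other small heat shock genes, which are named for the same protein family, correlated with Hspb1 at r = 0.779 and rho = 0.755 (adjusted permutation p 0.00018 and 0.00045).

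The members did not move as a single block. Over 45 pairs of members the median r was 0.16, against -0.004 over all pairs of genes tested, and 28 pairs were positive. Of the 45 pairs, 10 had both r and rho past an adjusted permutation p of 0.05 over the 45, and 8 had r above 0.5. Over all pairs of genes tested, the upper quartile of r was 0.214 and the 95th percentile was 0.514. The share of all pairs that would pass the permutation tests was not computed. The 4 members Hsp90aa1, Hspa8, Dnajb1 and Hspe1 were described as a set after the values were seen, with r between 0.566 and 0.713 in its 6 pairs and at least 0.531 after group means were subtracted. Hspa8 and Hspe1 gave the highest r at 0.713 (rho 0.705, adjusted permutation p 0.00015 and 0.000225), and 0.658 without the 2 farthest libraries. Dnajb1, whose windows hold no exact match to the 2-unit pattern, correlated with Hspa8 at r = 0.693 (rho 0.729, adjusted permutation p 0.00015 and 0.000225). Imperfect elements were not searched for.

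Neither pair of members that shares promoter sequence passed by both r and rho. Hspd1 and Hspe1, whose starts lie 111 bases apart on opposite strands, correlated at r = 0.459 and rho = 0.388 (adjusted permutation p 0.0148 and 0.0555), and at 0.233 with group means subtracted. Hspa1a and Hspa1b, with nearly the same promoter window, gave r = 0.38 and rho = 0.36 (adjusted permutation p 0.058 and 0.0789). Hsph1 correlated with Hspd1 at r = 0.575 (rho 0.622, adjusted permutation p 0.00109 and 0.00075). Hspa1a, Bag3 and Hspb1 had the lowest median r with the other members, at -0.04, 0.03 and -0.18, although Bag3 reached 0.32 with Hsph1.

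**Figure D4:**
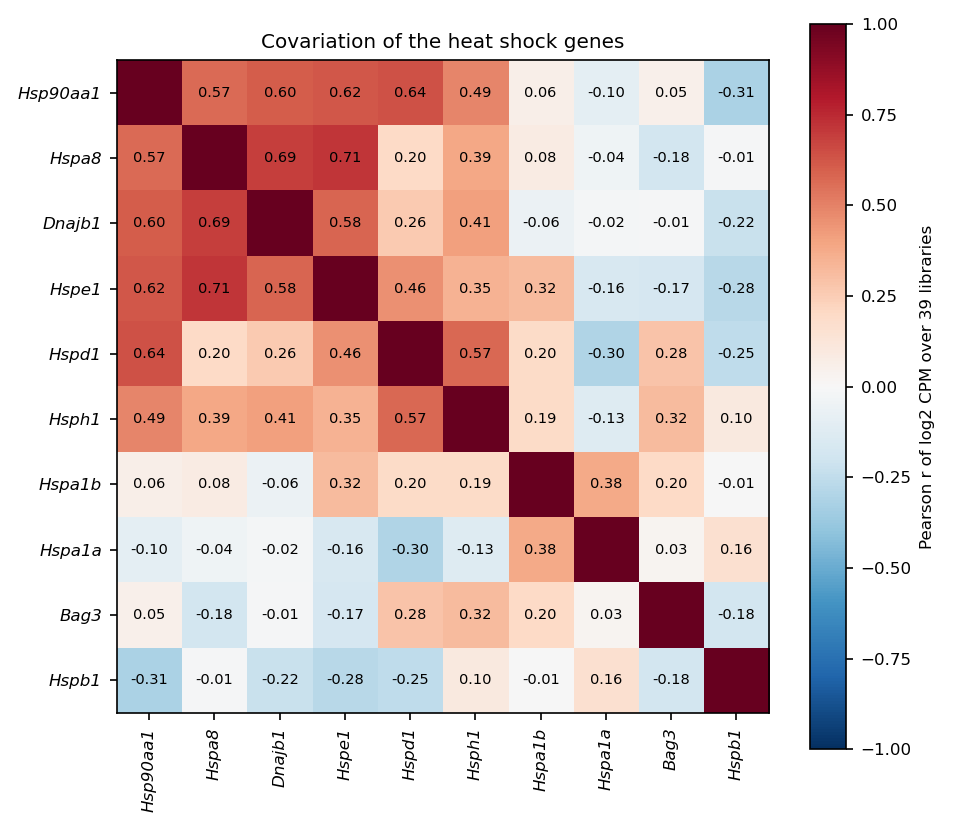
Pearson r of log2 CPM over 39 libraries for each pair of heat shock genes, from -1 (blue) to 1 (red), with the value in each cell. Hsp90aa1, Hspa8, Dnajb1 and Hspe1 share r of 0.566 to 0.713, and Hspa1a, Bag3 and Hspb1 have median r of -0.04, 0.03 and -0.18 with the others.

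Genes around the members in the heat shock network were counted from lists chosen with earlier results known. None of 4 tested heat shock factor genes, 23 other cytosolic chaperones and cochaperones, 5 other small heat shock genes, 8 CCT genes or 10 other mitochondrial chaperones and proteases passed the test of any difference among groups. Hsf1, the main heat shock factor, ran from 3.333 to 17.52 CPM (median 12.74) with an adjusted p of 0.6159. In that same test 3 of 16 immediate early genes passed, Egr1 (adjusted p 0.0213, 54.62 to 291.7 CPM), Egr2 (0.0404) and Atf3 (0.0404). In the oxidative and metal stress list 2 of 12 passed, Mt2 (adjusted p 0.03266, 436.3 to 3122 CPM), a metal-binding protein, and Hmox1 (0.04065), which breaks down haem. Among 18 endoplasmic reticulum genes 1 passed, Ddit3 (0.0404), a stress-induced transcription factor. These F tests give no direction. In the combination against vehicle on day 5, 19 of 23 other cytosolic chaperones and 9 of 10 other mitochondrial chaperones were lower, with medians of -0.14 and -0.21 and 0 called in either list. The median over all genes was -0.01, and the genes share the same tumours, so they are not independent observations. Heat shock factor scores ran from 3.543 to 3.881 in the combination and from 3.859 to 4.072 in vehicle. The ranges were 7.328 to 7.529 and 7.308 to 7.774 for the CCT list. For the other small heat shock list they were 4.495 to 5.38 and 4.525 to 5.135, and for the endoplasmic reticulum list 6.745 to 6.982 and 6.91 to 7.181.

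Tags at 3′ ends can be shared with copies of a gene. Among the 400 bases at the 3′ end of each member's longest coding transcript in GENCODE, no 50-base word was shared with another annotated gene for Hspa1a, Hspa1b, Hsph1, Dnajb1, Hsp90aa1, Hspd1 or Bag3. For Hspa8, 87.5% of the words also occurred in 13 other genes, mostly processed pseudogenes, which together held 35 counts over 39 libraries. For Hspe1 it was 59.8% in 5 genes with 41 counts, and for Hspb1 19.7% in 1 pseudogene with 36 counts. The levels of these 3 genes are uncertain to the extent that counting split such tags, a setting not given in the sources used here. Hspd1 and Hspe1 overlap by 112 bases at their starts on opposite strands.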

How the data were processed

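The authors deposited whole-number counts for each Ensembl identifier. They also deposited log2 CPM values. Per the submitters' processing notes, the tools were bcl2fastq, STAR, featureCounts and limma with builds mm10 and GRCm38. For versions, annotation and strand handling the entry is the same: not given in the sources used here. Per the labels' protocols, libraries were made with a QuantSeq forward kit. The deposited log2 values equal log2(count + 0.5) up to 1 constant per library and entered 1 alternative. Symbols came from the gene name table supplied with the reference, by Ensembl identifier (37607 matched), and coordinates and 3′ ends from GENCODE.

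Counts were tested with edgeR 4.0.16 (R 4.3.3): filterByExpr (minimum count 10, total 15), TMM, 1 mean per group over 39 libraries (31 residual degrees of freedom), robust quasi-likelihood F tests, 2-sided, Benjamini-Hochberg over 15070 genes. SE is the log2 fold change over the square root of F. Log2 CPM used a prior count of 2. List scores are mean log2 CPM. Permutation tests drew 100000 resamples, 2-sided. Every pair of replicates differed beyond counting noise (lowest chi-square per gene 10.7), so each library counted once. The fit was checked on simulated data for the combination against vehicle on day 5, with 200 changed genes. It called 58% of 2-fold and 88% of 4-fold changes, and 2 of 148 calls were false. A true 2-fold difference could thus go uncalled. With 148 calls the simulated data had a more lenient p cutoff than the real comparison, which called 4 genes. Simulated noise was also drawn independently for each gene, so the shares called can overstate those for the heat shock genes. Alternatives were size factors, no filter, DESeq2 1.42.0, limma 3.58.1, covariates, fewer groups, a replicate block and left-out libraries. A fit without the 3 libraries of discordant title number was added after seeing the data.

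The text names all members, up to 4 genes of each list by smallest p, and, of the 5 genes with the highest group-centred r to each member, those for Hspb1 and the first of Hspd1 and Hspa1b. The members and lists were chosen with earlier results of these data known.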

Additional observations from a re-analysis of the deposited data

Results flagged for a closer look

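In 3 of 80 gene and group combinations, 1 library lay far from the others of its group by the gap to its nearest neighbour over the group's range; chance gives about 1 in 20. Hspa1a was 7.08 CPM (94 counts) in vehicle day 2 replicate 1, against 2.57 to 3.37 in the other 4 tumours. Hspa1a was 9.49 CPM (110 counts) in anti-PD-1 day 5 replicate 5, against 3.81 to 4.8 in the others. In that same tumour Dnajb1 was lowest of its group at 42.6 CPM, against 51.6 to 55.3, and it also held the highest Hspb1 and skeletal muscle score of all libraries. The part of tissue content in these values was not tested.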

How the results depend on the processing

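Of 626 counts of heat shock genes called under alternative settings, 619 were 0, as reported. With limma-voom and quality weights the count was 1 for the combination against anti-PD-1 on day 2, against EPAT on day 2 and for the interaction on day 2 (Hsph1), 2 for EPAT between days (Hsph1 and Hspa8) and 3 for any difference among groups (Hsph1, Hspa8 and Bag3); the cause was not tested. Of all genes, the same limma-voom fit called 689, 150, 42, 1181 and 2424 in these comparisons, in that order. Leaving out 1 library at a time gave 0 to 1 heat shock genes for the mean day effect (Hspd1). The replicate block by title number called 0 members (smallest adjusted p 0.105); same-numbered libraries did not pair, with a median correlation of 0.0109 over 133 pairs (-0.557 to 0.575), and 8 of 39 libraries matched best with their own number. Of 3022 member values, 158 changed sign, 150 of them smaller than their SE. The other 8 were Hspb1 in EPAT against vehicle on day 2 (1.28 to -0.45) and vehicle between days (1.24 to -0.52) with the muscle score as covariate, Hspb1 in anti-PD-1 against vehicle on day 5 (0.96 to -0.32 with limma-trend, -1.49 with limma-voom and -0.70 to 1.24 leaving out 1 library at a time, lowest without anti-PD-1 day 5 replicate 5) and in the combination against anti-PD-1 on day 5 (-1.70 to 0.61 with limma-voom), and Hspa1a in EPAT against vehicle on day 2 (-0.39 to 0.02 without the 3 doubted libraries) and on day 5 (0.37, and -0.05 to 0.70 leaving out 1 library at a time, lowest without EPAT day 5 replicate 3). The 3 doubted libraries carry B cell or keratinocyte genes. Without the 3 libraries of discordant title number, a setting chosen after seeing the data, 0 members were called and the smallest member adjusted p was 0.121. Any difference among groups called 85 of all genes as reported, 81 without those 3, 2424 with limma-voom, 901 with DESeq2, 17 with limma-trend, 20 with the muscle covariate, 18 with the lung covariate and 2 with the block. Hspa1a and Hspb1 rest on few counts, which limits their precision.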
